A study of Mus musculus with 6 samples.

Results

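Lipid droplet and lipolysis genes were followed in immortalized cardiosphere-derived cells of the mouse, called iCDCs in the labels and iECDCs, for their epicardial origin, in the study. The 10 genes, taken by name from the 54532 genes of the count table, were the perilipins Plin1, Plin2, Plin3 and Plin4, the lipases Lpl, Lipe and Pnpla2, the triglyceride-making enzyme Dgat2, the fatty acid receptor Cd36 and the nuclear receptor Pparg. The list was a choice of names and not of values, although earlier results of these data were known when it was made. RNA sequencing compared 3 control libraries with 3 libraries of induced cells, all from the C57BL/6 strain, with heart ventricle as the labelled tissue. Control cells were iCDCs at passage 30. Induced cells were of the same passage and, per the labels, received 10 µM 5-azacytidine (5-aza), an inhibitor of DNA methylation, for 3 days and then stayed for 4 weeks in IMDM medium with 2% serum. The methods of the study describe another medium and a shorter culture for this differentiation, and they name a routine growth medium, IMDM with more serum, without restating it for the sequenced control cells. Drug, serum and time in culture therefore cannot be told apart. All 6 libraries carry the same human telomerase transgene, delivered by lentivirus under a CMV promoter and selected with puromycin. The labels speak of 3 separate RNA samples per group without naming separate cultures, and the methods give a lower number of biological replicates per condition. The p-values therefore measure the spread between these samples, which may be technical.

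Cells store surplus fatty acids as triglyceride in lipid droplets, which bud from the endoplasmic reticulum and are coated by perilipins. Fatty acids reach the cell through lipoprotein lipase, which frees them from circulating lipoproteins, and through receptors such as CD36. They are built into triglyceride by DGAT enzymes and released again by a cascade of lipases, in which ATGL (Pnpla2) acts before hormone-sensitive lipase (Lipe) and monoglyceride lipase. PPARG drives many of these genes in adipocytes. In the heart, droplet turnover feeds fatty acid oxidation, the main fuel of adult cardiomyocytes, while epicardial cells can give rise to the fat on the heart's surface.

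Induced cells carried more RNA for droplet coats and for lipases, and less for Dgat2 and Pparg. By edgeR's quasi-likelihood test, 8 of the 10 genes had enough reads to be tested. All 8 tested genes were past a Benjamini-Hochberg adjusted p of 0.05, 6 of them higher and 2 lower in induced cells. This has to be read against a background in which 64.8% of the 14246 tested genes were called, 32.6% higher and 32.2% lower. Control and induced libraries were fully separated for each of the 8, as for 68.6% of all tested genes. Lpl and Lipe differed by 2-fold or more, a size reached by 17.1% of all tested genes together with the call. The median log2 fold change of the 8 genes was 0.52, and that of all tested genes was -0.01. Levels are counts scaled to library size by TMM (CPM), given as mean ± SD over 3 libraries, and in bulk RNA fewer cells expressing a gene and less RNA per cell cannot be told apart. Total counts were 19041133 to 19823369 per library, and a count of 0 allowed up to 0.151 to 0.158 CPM, which covers counting error only.

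**Figure D1:**
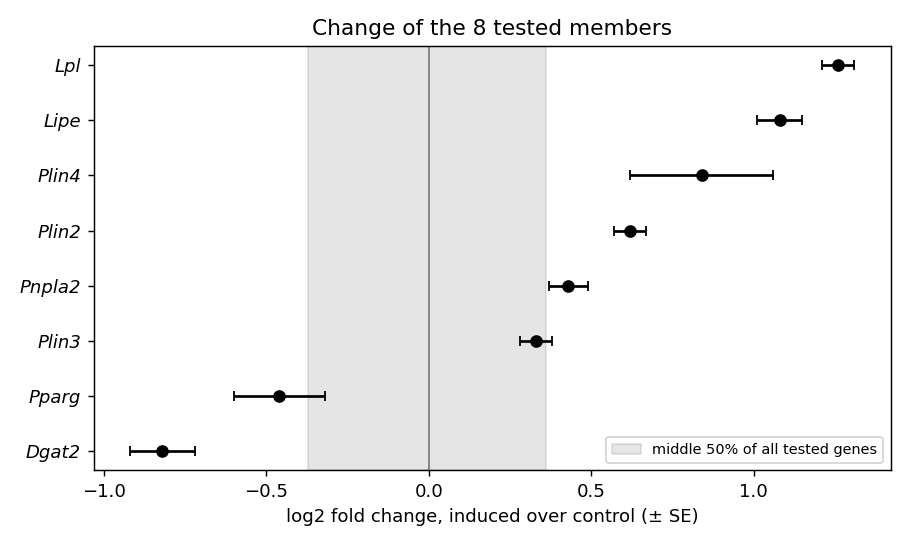
Log2 fold change of induced over control cells for the 8 tested genes, with points for the edgeR estimate and error bars for its SE. The grey band holds the middle 50% of all 14246 tested genes, from -0.37 to 0.36. Lpl (1.26) and Lipe (1.08) lie farthest above the band, Plin3 (0.33) inside it, and Dgat2 (-0.82) and Pparg (-0.46) below it.

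Promoter sequences are shown for their CpG, the step in the sequence at which mammalian DNA is methylated and which 5-aza treatment concerns. No methylation was measured here. RefSeq windows from 250 bases before to 50 bases after a transcription start (GRCm38.p6) were found for 8 of the 10 genes, 11 windows in all, and Lpl and Dgat2 had no entry. The 5 windows printed here set the 2 genes with almost no reads, Plin1 and Cd36, beside 3 expressed genes that rose, Plin2, Pnpla2 and Lipe. They run 5′ to 3′ on the gene's strand, and capitals mark CpG.
Plin1, chr7:79732727-79733026, minus strand: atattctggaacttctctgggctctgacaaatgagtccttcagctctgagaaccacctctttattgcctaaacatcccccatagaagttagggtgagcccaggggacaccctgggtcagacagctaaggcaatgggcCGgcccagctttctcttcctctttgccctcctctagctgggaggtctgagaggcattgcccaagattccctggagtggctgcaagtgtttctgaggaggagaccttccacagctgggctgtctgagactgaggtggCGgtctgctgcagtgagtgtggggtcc
Cd36, chr5:17835847-17836146, minus strand: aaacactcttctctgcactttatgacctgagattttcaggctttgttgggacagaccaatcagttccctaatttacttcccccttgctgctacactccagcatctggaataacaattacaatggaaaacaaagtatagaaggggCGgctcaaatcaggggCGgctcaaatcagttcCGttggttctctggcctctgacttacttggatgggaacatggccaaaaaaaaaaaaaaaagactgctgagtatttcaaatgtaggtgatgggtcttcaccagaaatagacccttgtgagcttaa
Plin2, chr4:86670010-86670309, minus strand: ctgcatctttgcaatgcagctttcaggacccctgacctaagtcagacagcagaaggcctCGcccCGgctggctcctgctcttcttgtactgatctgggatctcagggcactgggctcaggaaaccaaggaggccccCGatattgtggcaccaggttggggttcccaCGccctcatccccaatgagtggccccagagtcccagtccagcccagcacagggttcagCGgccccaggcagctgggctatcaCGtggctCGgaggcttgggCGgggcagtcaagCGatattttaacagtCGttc
Pnpla2, chr7:141454938-141455237, plus strand: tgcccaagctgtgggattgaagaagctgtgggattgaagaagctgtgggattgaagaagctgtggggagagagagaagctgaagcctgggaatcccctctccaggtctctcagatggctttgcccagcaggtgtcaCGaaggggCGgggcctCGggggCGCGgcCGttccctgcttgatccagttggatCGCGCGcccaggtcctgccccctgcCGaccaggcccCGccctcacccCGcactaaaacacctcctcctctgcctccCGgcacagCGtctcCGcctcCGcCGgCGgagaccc
Lipe, chr7:25395938-25396237, minus strand: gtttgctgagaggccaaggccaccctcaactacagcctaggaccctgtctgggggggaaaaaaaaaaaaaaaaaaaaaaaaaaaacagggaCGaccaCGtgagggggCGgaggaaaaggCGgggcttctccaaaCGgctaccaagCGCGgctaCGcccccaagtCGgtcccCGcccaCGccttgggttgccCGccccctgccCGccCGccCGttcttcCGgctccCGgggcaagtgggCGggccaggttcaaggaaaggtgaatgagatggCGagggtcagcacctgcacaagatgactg

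The near-silent genes had CpG-poor windows, with 2 CpG for Plin1 and 3 for Cd36. The Cd36 window (17835847 to 17836146) lies inside the gene, whose 5′ end in the count table is at 17888801. The printed window of Lipe (to 25396237) and the window of Plin3 (to 56290761) also lie inside their genes. The 5′ ends of these genes are at 25398710 and 56292873. CpG at these outer ends were not counted. The window of Plin2 held 10, that of Pnpla2 held 18 and the upstream window of Lipe held 19, against a median of 7 over 32851 windows. Lipe has a further RefSeq start downstream, with 2 CpG. The windows of Plin3 and Plin4 held 9 and 7. Pparg, which fell, has 3 starts, with 44, 13 and 2 CpG, and gene-level counts do not tell which start was used. Among tested genes whose richest window held 0 to 4 CpG, 44.6% were called higher and 23.2% lower (583 genes), against 32.9% and 34.2% for those with 20 or more (6083 genes). With 5 to 9 CpG the shares were 39% and 27.1% (902 genes). With 10 to 19, the class of Plin2, Pnpla2 and Lipe, they were 31.6% and 33.8% (2755 genes). The AGGTCA half-site of nuclear receptors such as PPARG, searched on both strands, was present in the windows of Plin2 and Cd36 and in 2 windows of Pparg, and in 16.3% of all windows. The direct repeat of this half-site with any base as spacer (DR1) was in no window of these genes and in 0.0396% of all windows. The E-box CACGTG was in the windows of Plin2 and Lipe (upstream) and in 7.15% of all windows. CCAAT was in 37.4%, GGGCGG in 35.7% and TATAAA in 13.6% of all windows, and among these genes TATAAA was in 1 window, of Pparg. These matches, all counted on both strands, describe letters only.

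**Figure D2:**
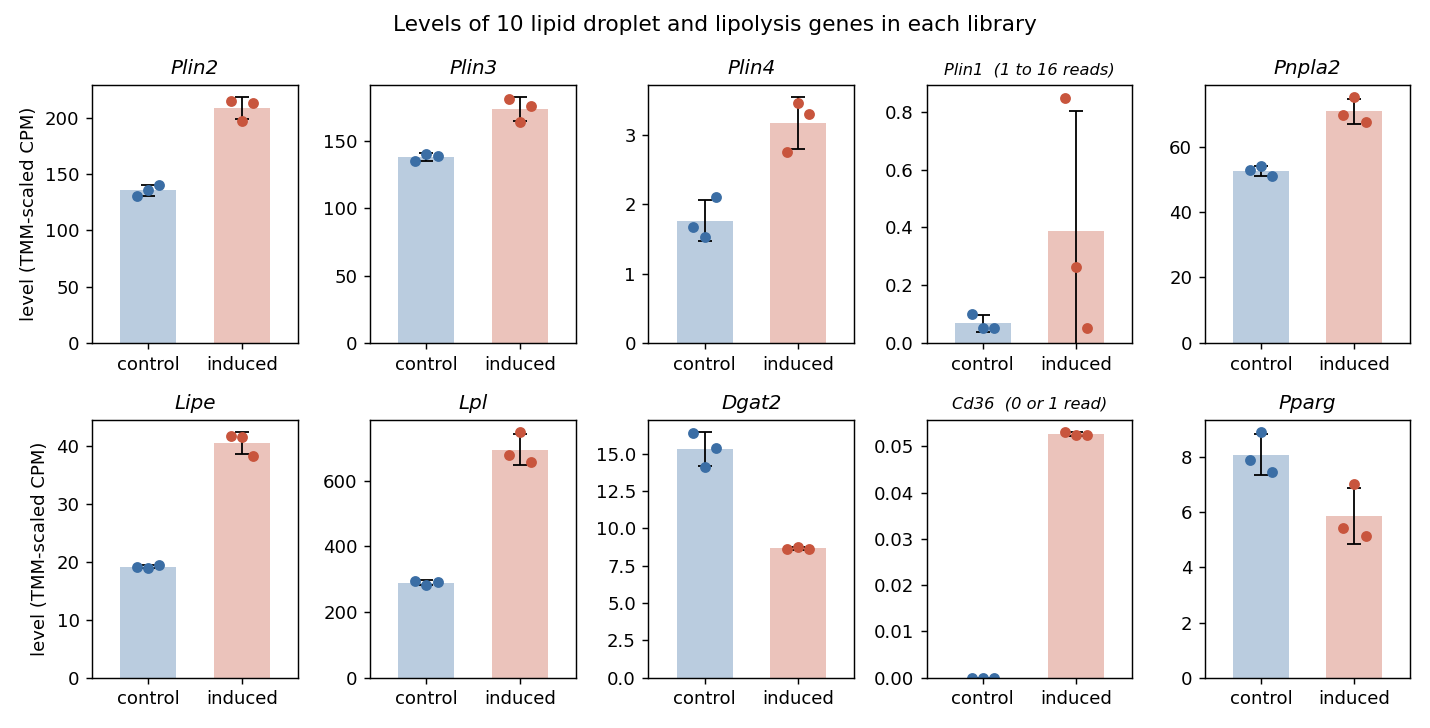
Level of each of the 10 genes in TMM-scaled CPM (linear axes from 0, a scale per gene) in control (blue) and induced (red) libraries. Points are libraries, bars are means of 3 and error bars are SD. The 3 induced libraries lie above the 3 control libraries for Plin2, Plin3, Plin4, Pnpla2, Lipe and Lpl and below them for Dgat2 and Pparg, while Cd36 rests on 0 or 1 read per library and Plin1 on 1 to 16, with its lower error bar cut off at 0.

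The perilipins were dominated by the broadly expressed members. Plin2, the coat protein of droplets in most cell types (ENSMUSG00000028494, chromosome 4, 86648386 to 86670060, minus strand), had 130.4, 136 and 140.0 CPM in control libraries and 215, 197 and 213 CPM in induced libraries. Every induced library was above every control library. The mean rose from 136 ± 4.87 to 208 ± 9.65 CPM (SD, n = 3), a log2 fold change of 0.62 (SE 0.05, edgeR adjusted p 5.24e-09). Plin3, a perilipin that moves between cytosol and nascent droplets (ENSMUSG00000024197, chromosome 17, 56277476 to 56292873, minus strand), had 135, 140.5 and 139 CPM in control and 181, 164 and 176 CPM in induced libraries. It rose less, by 0.33 on the log2 scale (SE 0.05, edgeR adjusted p 1.72e-05), without overlap of the groups.

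Plin4, which coats small droplets in adipocytes and muscle (ENSMUSG00000002831, chromosome 17, 56100591 to 56109803, minus strand), was scarce, with 1.67, 1.53 and 2.10 CPM in control and 2.76, 3.47 and 3.30 CPM in induced libraries. With 105 control reads and 181 induced reads, its log2 fold change was 0.84 (SE 0.22, edgeR adjusted p 0.00263). It shares 0.294% of its exon bases with the antisense gene Hdgfl2, whose reads went the other way, from 4637 to 3674. Plin1, the perilipin of adipocytes (ENSMUSG00000030546, chromosome 7, 79720218 to 79732903, minus strand), had 2, 1 and 1 reads in control and 16, 5 and 1 reads in induced libraries. It did not pass the filter, the groups overlapped, and 72.7% of the induced reads came from induced replicate 1. The ratio of pooled reads was 5.59 with a 95% exact binomial interval of 1.90 to 22.3, which covers counting error only. Fitted without the filter, its log2 fold change was 2.42 (edgeR adjusted p 0.0168), but 1.15 (edgeR adjusted p 0.468) when induced replicate 1 was also left out, and DESeq2 gave an adjusted p of 0.0782. Plin5, the perilipin of oxidative tissues such as heart muscle and not among the 10 genes, had 9 control reads and 7 induced reads and was not tested.

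Levels of different genes can be compared only per length, for which the deposited FPKM (counts scaled to gene length and library depth) were used. The summed FPKM of Plin1 to Plin5 was 72.4, 75.5 and 76.5 in control and 109.8, 99.9 and 108 in induced libraries. Plin2 and Plin3 together made up nearly all of it. Plin2 held 51.2 ± 0.536% of the sum in control and 56.0 ± 0.327% in induced cells (SD, n = 3), and Plin3 held 48.3 ± 0.533% and 43.3 ± 0.306%. Plin4 held 0.405 ± 0.0637% and 0.522 ± 0.0823%. The ratio of Plin2 to Plin3 within a library was 1.04, 1.05 and 1.09 in control and 1.28, 1.30 and 1.31 in induced cells. The 2 groups of ratios did not overlap (log2 difference 0.29, exact permutation test, two-sided, p = 0.1, adjusted over 3 ratios 0.1), and 0.1 is the smallest p that 3 against 3 libraries allow.

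Of the intracellular lipases, Lipe changed more than Pnpla2. Lipe, hormone-sensitive lipase (ENSMUSG00000003123, chromosome 7, 25379527 to 25398710, minus strand), had 19.1, 18.9 and 19.5 CPM in control and 41.7, 41.5 and 38.3 CPM in induced libraries. The lowest induced library was thus almost at 2-fold the highest control library, and the log2 fold change was 1.08 (SE 0.07, edgeR adjusted p 1.30e-10). On the antisense strand, 4732471J01Rik shares 15.6% of the exon bases of Lipe. The strand setting of the count is not given in the sources used here, and 4732471J01Rik itself had 38 control reads and 33 induced reads, beside 1138 and 2306 for Lipe. Pnpla2, adipose triglyceride lipase, which starts droplet lipolysis (ENSMUSG00000025509, chromosome 7, 141455198 to 141460743, plus strand), had 53.0, 54.0 and 50.9 CPM in control and 69.8, 75.1 and 67.4 CPM in induced libraries, a log2 fold change of 0.43 (SE 0.06, edgeR adjusted p 2.57e-06). The groups did not overlap. Per length, Lipe stood at 0.185, 0.180 and 0.196 of Pnpla2 in control and at 0.306, 0.283 and 0.291 in induced libraries. These ratios did not overlap either (log2 difference 0.65, exact permutation test, two-sided, p = 0.1, adjusted over 3 ratios 0.1).

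Other genes of lipolysis moved mostly upward. Of 24 listed enzymes and cofactors, 17 were tested, 12 were called higher and 1 lower, with a median log2 fold change of 0.39. Both the activator and the inhibitor of ATGL rose. Abhd5 (CGI-58), the activator, went from 32.5 ± 0.521 to 69.2 ± 1.53 CPM (a log2 fold change of 1.09 at an edgeR adjusted p of 3.06e-12). An antisense gene covering 16% of its exon bases had 0 control reads and 2 induced reads. G0s2, the inhibitor, went from 9.39 ± 0.707 to 24.1 ± 3.23 CPM (log2 change 1.36, edgeR adjusted p 2.14e-09). Mgll, which cleaves the last fatty acid from glycerol, rose by 0.81 and the lysosomal lipase Lipa by 0.60 on the log2 scale. The gene called lower was Prkar2b, a regulatory subunit of protein kinase A, which relays the hormonal signal to Lipe and Plin1, from 61.4 ± 1.82 to 11.2 ± 2.48 CPM (log2 change -2.46), while another subunit, Prkar1a, rose by 0.58.

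Lpl had the largest fold change of the 8 tested members. This secreted lipase (ENSMUSG00000015568, chromosome 8, 68880491 to 68907448, plus strand) had 295, 281 and 290.1 CPM in control and 678, 748 and 657 CPM in induced libraries. All induced libraries were above all control libraries, with a log2 fold change of 1.26 (SE 0.05, edgeR adjusted p 1.67e-13), or 2.40-fold. Per length it ranked behind both main perilipins in control cells, at 27.3 ± 0.701 FPKM against Plin2 (38.3 ± 1.40) and Plin3 (36.1 ± 0.791), and before them in induced cells, at 66.2 ± 4.42 FPKM against Plin2 (59.3 ± 2.84) and Plin3 (45.8 ± 2.45). Libraries of neighbours in that order did not overlap in either group. The FPKM of Lpl was above that of 86.3% of tested genes in control and 94.4% in induced cells. Pnpla2 followed with 17.3 ± 0.488 and 23.4 ± 1.28 FPKM. Dgat2 (4.91 ± 0.385 FPKM) stood above Lipe (3.23 ± 0.0525 FPKM) in control cells and below it in induced cells (2.81 ± 0.0254 against 6.87 ± 0.322 FPKM), and the median tested gene had 5.01 and 5.11 FPKM. The FPKM order and percentiles rest on the gene lengths used, 10478 bases for Lpl against 3512 for Plin2 and 3786 for Plin3. In CPM, which is not divided by length, Lpl was above both in control cells (289 ± 6.98 against 136 ± 4.87 and 138 ± 3.10). Lipe was likewise above Dgat2 there (19.2 ± 0.273 against 15.3 ± 1.18 CPM). The lengths of the transcripts present were not tested.

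Genes that act on lipoprotein lipase changed in both directions. Of 17 listed genes, 11 were tested, 7 higher and 4 lower (median log2 fold change 0.45). Angptl4, a secreted inhibitor of lipoprotein lipase, rose from 149.6 ± 7.54 to 247 ± 9.77 CPM (log2 change 0.73, edgeR adjusted p 6.03e-10). Sel1l, needed for the enzyme's exit from the endoplasmic reticulum, rose by 0.76, and the lipoprotein receptors Vldlr and Lrp1 by 1.12 and 0.45. Lmf1, Lmf2 and Angptl8 of the same list were called lower (log2 fold changes -0.20, -0.53 and -1.59). Sdc1, a heparan sulfate carrier that binds the enzyme at the surface, fell from 206 ± 6.62 to 109 ± 7.59 CPM. Gpihbp1, the endothelial protein that carries the enzyme into capillaries, had 0 reads in all 6 libraries.

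Cd36 (ENSMUSG00000002944, chromosome 5, 17781690 to 17888801, minus strand) was the other near-silent member. It had 0 reads in each control library and 1 read in each induced library. Both groups lie under the limit of 3 counts, so no fold is given, and this depth cannot show whether the groups differ. Of 21 other genes of fatty acid uptake and activation, 15 were tested, 4 higher and 6 lower (median log2 fold change -0.12). The fatty acid binding protein Fabp5 fell from 69.8 ± 4.52 to 42.4 ± 3.48 CPM (log2 change -0.72), the transporter Slc27a6 fell by 1.59, and the acyl-CoA binding protein Dbi and the transporter Slc27a4 rose by 0.53 and 0.42. Fabp4, the binding protein of adipocytes and capillaries, had 6.09 ± 0.487 and 5.11 ± 0.512 CPM, and its log2 fold change of -0.25 (SE 0.15) did not pass the test (edgeR adjusted p 0.134).

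Dgat2 went the other way from the lipases. This enzyme of the last step of triglyceride synthesis (ENSMUSG00000030747, chromosome 7, 99153658 to 99182719, minus strand) had 16.4, 14.1 and 15.4 CPM in control and 8.60, 8.78 and 8.64 CPM in induced libraries. The induced libraries lay close together and well under every control library. Its level fell from 15.3 ± 1.18 to 8.67 ± 0.0917 CPM, a log2 fold change of -0.82 (SE 0.10, edgeR adjusted p 1.21e-06). Dgat1, the unrelated enzyme of the same step, had 32.2 ± 1.25 and 29.2 ± 3.32 CPM, with a log2 fold change of -0.14 (SE 0.08) that did not pass the test (edgeR adjusted p 0.129). Per length, Dgat2 stood at 0.521, 0.436 and 0.453 of Dgat1 in control and at 0.270, 0.342 and 0.279 in induced libraries (log2 difference -0.67, exact permutation test, two-sided, p = 0.1, adjusted over 3 ratios 0.1). Of 20 other genes of triglyceride synthesis, 19 were tested, 8 higher and 4 lower (median log2 fold change 0.11). The phosphatidate phosphatase Lpin1 rose by 0.93 and the acyltransferase Agpat3 by 0.45, while the lipid phosphatase Plpp3 fell from 380.2 ± 7.32 to 213 ± 6.14 CPM. Gpat2 and Gpat3, acyltransferases of the entry step, rose from 2 to 80 reads and from 12 to 100 reads, and 37.4% of the exon bases of Gpat3 overlap other genes. Of the tested genes beside Dgat2 on chromosome 7, Uvrag, the nearer at 12517 bases, rose by 0.57, and Mogat2, on the other side at 36365 bases, had a log2 fold change of -0.44 (edgeR adjusted p 0.00555).

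**Figure D3:**
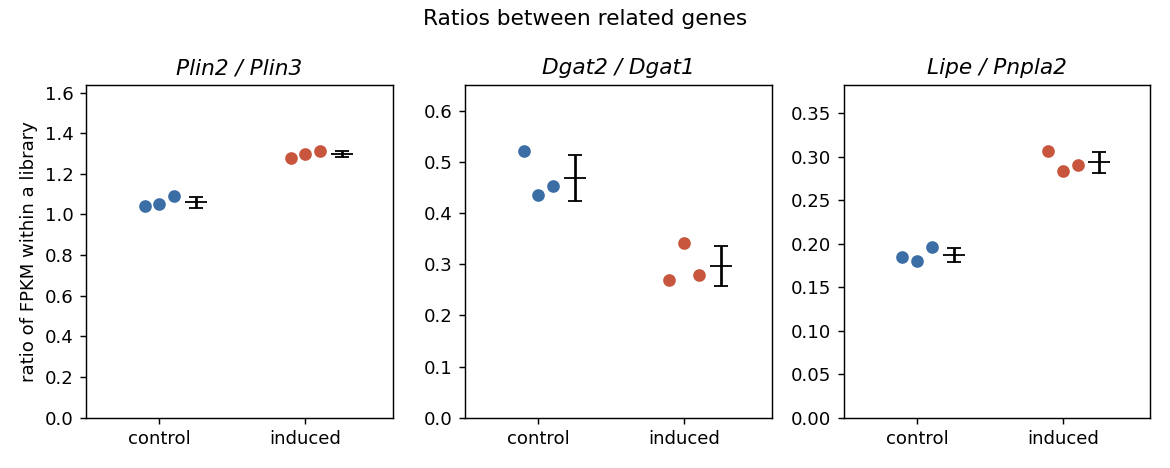
Ratio of the FPKM of related genes within each library (linear axes from 0) for control (blue) and induced (red) libraries. Points are libraries, and the bar beside them is the mean ± SD of 3. Plin2 to Plin3 lies at 1.04 to 1.09 in control and 1.28 to 1.31 in induced cells, Dgat2 to Dgat1 at 0.436 to 0.521 and 0.270 to 0.342, and Lipe to Pnpla2 at 0.180 to 0.196 and 0.283 to 0.306.

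Pparg, the nuclear receptor that directs adipocyte differentiation (ENSMUSG00000000440, chromosome 6, 115360951 to 115490399, plus strand), had 7.90, 8.91 and 7.46 CPM in control and 5.42, 7.04 and 5.13 CPM in induced libraries. The highest induced library came close to the lowest control library without reaching it. Its log2 fold change was -0.46 (SE 0.14, edgeR adjusted p 0.00890). The call was lost without control replicate 2 (-0.39, edgeR adjusted p 0.0502) and without induced replicate 3 (-0.37, edgeR adjusted p 0.0523), within a range of 0.000852 to 0.0523 over all alternatives. Rxra, the partner with which PPARG binds DNA, rose from 158 ± 3.25 to 203 ± 4.86 CPM (log2 change 0.36, edgeR adjusted p 1.94e-06). Of the other PPAR genes, Ppara had 115 control reads and 65 induced reads (log2 fold change -0.76, edgeR adjusted p 0.0338, groups overlapping), and Ppard had a log2 fold change of 0.03 (edgeR adjusted p 0.675).

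Of 29 regulators of PPAR and of adipogenesis, 26 were tested, 6 higher and 11 lower (median log2 fold change -0.17). Pdk4, a PPAR target that turns cells from glucose to fatty acid use, rose from 7.98 ± 0.413 to 25.6 ± 1.98 CPM (log2 change 1.68, edgeR adjusted p 2.10e-11). Dlk1 and Gata2, both inhibitors of adipocyte formation, fell by 4.85 and 1.43 on the log2 scale, Dlk1 from 161 reads to 5. The fall was not limited to inhibitors, since Tle3, Cebpb and Cebpd were also called lower (log2 fold changes -0.40, -0.34 and -0.35). Klf4 was called higher (0.78). Cebpa, the factor that works with PPARG in adipocytes, had 12.6 ± 1.75 and 11 ± 1.04 CPM and did not pass the test (log2 fold change -0.19, SE 0.12, edgeR adjusted p 0.153).

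Among other coat and droplet proteins, 13 of 19 listed genes were tested, 9 higher and 2 lower (median log2 fold change 0.37). Pcyt1a, which makes phosphatidylcholine for growing droplets, rose from 90.9 ± 3.25 to 187 ± 11.3 CPM (log2 change 1.04, edgeR adjusted p 8.37e-12). Bscl2 (seipin), which organizes the site where droplets bud, rose by 0.67, and the droplet proteins Hsd17b11 and Rab18 by 0.53 and 0.44. Nsdhl, a sterol enzyme that can sit on droplets, fell from 38.7 ± 0.237 to 24.5 ± 1.40 CPM. Parts of the exons of Pcyt1a (9.09%), Bscl2 (10.8%) and Rab18 (4.45%) overlap other genes.

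Genes for the use and the making of fatty acids had medians nearer to 0. Of 25 oxidation genes, 24 were tested, 9 higher and 6 lower, with a median log2 fold change of 0.06. Cpt1a, which admits long-chain fatty acids to mitochondria, rose from 139 ± 0.743 to 243 ± 3.6 CPM (log2 change 0.81, edgeR adjusted p 2.34e-11), and Acaa2 and Slc25a20 rose by 0.75 and 0.54. Acad9, which also helps to assemble respiratory complex I, fell from 69.6 ± 0.430 to 26.6 ± 1.27 CPM. Of 21 fatty acid synthesis genes, 19 were tested, 8 higher and 4 lower, with a median of 0.09. The desaturases Fads2 and Fads1 rose by 0.78 and 0.59 and malic enzyme Me1 by 0.59, while the elongase Elovl6 fell from 45.5 ± 3.02 to 20.1 ± 2.33 CPM and Elovl7 rose from 28 to 150 reads. All lists were drawn up with earlier results of these data known, and their counts stand beside the 32.6% and 32.2% of all tested genes called higher and lower.

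**Figure D4:**
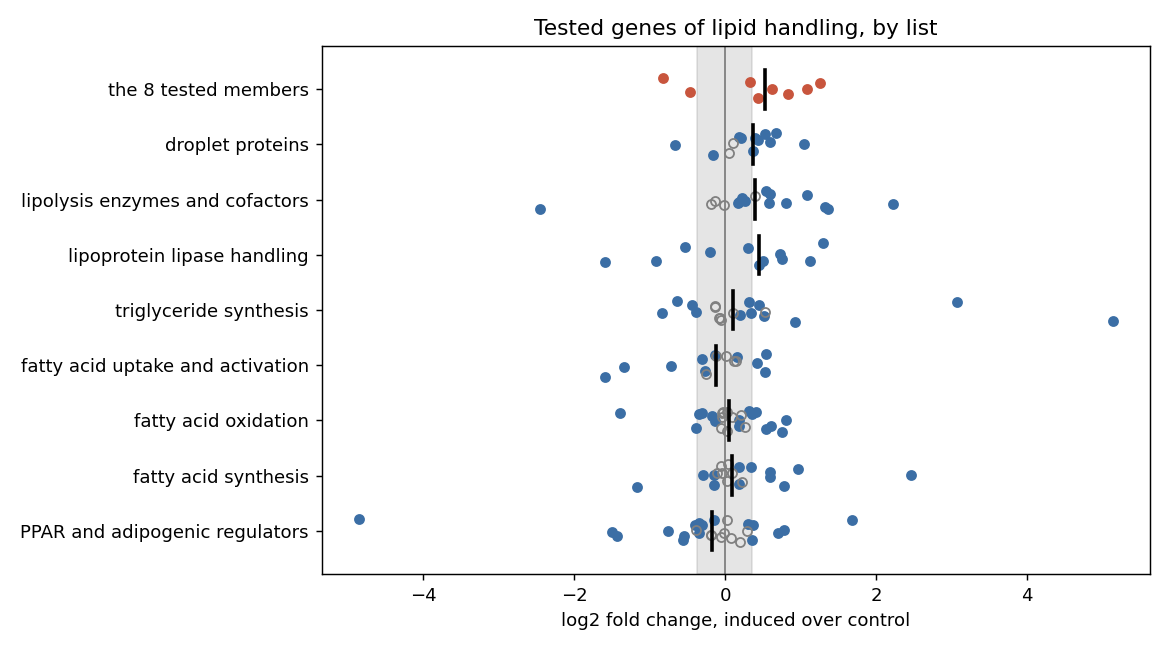
Log2 fold change of each tested gene in the lists of lipid handling. Filled points passed an edgeR adjusted p of 0.05 and open points did not, black bars are list medians, and the grey band is the middle 50% of all tested genes. The 8 tested members, in red, have a median of 0.52. Lipolysis (0.39), droplet (0.37) and lipoprotein lipase (0.45) lists have medians at or above the band's edge, and the medians of the other lists lie between -0.17 and 0.11.

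Markers of cell types that share these genes were read in the same libraries. Of 18 adipocyte markers, 4 were tested, and their summed level was 6.87 to 8.16 CPM in control and 7.78 to 10.0 CPM in induced libraries, most of it Fabp4. Cfd and Pck1 had 0 reads, Adipoq had 7 control reads and 0 induced reads, Rbp4 fell from 35 reads to 2, and Sncg and Adrb3 were called higher (1 to 69 and 14 to 64 reads). The other untested markers with reads had few, and more of them in induced cells. Lep went from 2 to 19 reads, Slc2a4 from 7 to 20 and Aoc3 from 7 to 19. Retn went from 5 to 11 reads and Car3 from 0 to 10. Macrophages also express Lpl, Cd36 and Plin2. Their 16 markers summed to 70.1 to 78.5 CPM in control and 92.7 to 103 CPM in induced libraries, with 5 tested. Cd68 (1.95 ± 0.217 to 29.1 ± 2.77 CPM), Lyz2 (3.75 ± 0.636 to 14.6 ± 1.25 CPM) and Fcer1g (2 to 187 reads) rose and Csf1r fell, while Ptprc, Itgam, Adgre1, Tyrobp, Cd52, Marco and Msr1 had 0 reads in all 6 libraries. Cd14 was tested and not called (log2 fold change -0.14). The genes that rose made up a small part of the control sum and a much larger part of the induced sum. Of 12 endothelial markers, 2 were tested and Egfl7 rose (8.63 ± 0.563 to 11.1 ± 0.453 CPM), the sum was 10.1 to 11.6 CPM in control and 12.8 to 13.3 CPM in induced libraries, and Cldn5, Sox17 and Tie1 had 0 reads. Of 16 cardiomyocyte markers, 3 were tested and Tnnt2 and Myl7 rose (778 to 3310 and 0 to 74 reads), with sums of 14.0 to 16.4 and 61.1 to 64.2 CPM. Most of both sums was Tnnt2 (13.1 ± 1.62 and 58.1 ± 1.92 CPM), and Tnni3 did not pass the test (edgeR adjusted p 0.144). Among the untested markers, control and induced reads were 0 and 1 for Myh6, 3 and 4 for Myh7, 6 and 4 for Actc1, and 1 and 29 for Ryr2. All 13 mesenchymal and epicardial markers were tested, with 7 higher and 6 lower and sums of 23286 to 24406 and 24791 to 26304 CPM. Of the epicardial markers among them, Tbx18 was lower (log2 fold change -0.33), and Tcf21, Wt1 and Upk3b were higher (1.49, 1.34 and 1.89). The part of the cells that carry these markers in the changes of Lpl and the perilipins was not tested.

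The genes lie apart in the genome, with 4 of the 10 (Plin1, Lipe, Pnpla2 and Dgat2) on chromosome 7 and Plin3 and Plin4 on chromosome 17. Some of their nearest tested neighbours moved with them and others against them. Uhrf1, which guides maintenance DNA methylation and lies 10448 bases beyond Plin3, had a log2 fold change of -1.92 (edgeR adjusted p 2.42e-15), and Ticam1 on the other side had -0.29. Lrg1, 9875 bases from Plin4, rose by 0.80, close to the 0.84 of Plin4. Haus6 beside Plin2 fell by 0.61 and Rplp2 beside Pnpla2 fell by 0.65, while both members rose. Both neighbours of the near-silent Cd36 rose, Sema3c by 2.27 at 51422 bases and Gnai1 by 1.35 at 376334 bases.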

How the data were processed

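Gene expression was measured by RNA sequencing (NEBNext Ultra kit) in 3 control and 3 induced libraries of iCDCs. The submitters' processing notes name HISAT2 2.0.5, featureCounts 1.5.0-p3, DESeq2 1.16.1 and the mm10 build. The strand setting and annotation release are not given in the sources used here. The deposited table holds raw read counts per gene, and FPKM values that the authors obtained by dividing counts by gene length and by a depth of 0.980 to 1.03 times the library total. Coordinates are those of the table and equal GENCODE M21 (GRCm38) for all 10 genes. The columns with the authors' group means, fold changes and p-values, and their Gene Ontology tables, were not used.

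The counts were fitted with edgeR 4.0.16 under R 4.3.3, after filterByExpr with a minimum count of 10 and a minimum total of 15. Libraries were scaled by TMM, and the groups were compared with the two-sided quasi-likelihood test across all 14246 genes, with Benjamini-Hochberg adjustment at 0.05. SEs were derived from each fold change and the matching F value. The biological coefficient of variation was 5.82%. Libraries of a group differed by more than sampling noise (2.56 to 8.91 chi-square units per degree of freedom), and none was merged. The test was tested on simulated data. FPKM served for ratios and levels between genes. A planned ratio of Cd36 to Lpl was not computed, and Cd36 had 0 reads in each control library. Alternatives were DESeq2 1.42.0, other scalings and filters, limma 3.58.1 on log2 FPKM, a replicate block and leaving out libraries.

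The members, gene lists and tests were chosen with earlier results of these data known. Named genes are the 10 members, up to 5 genes per pathway list with the smallest p, direct partners of members, markers at 0 reads or called, and the nearest tested neighbours. Ppara, Ppard, Cebpb, Cebpd, Lmf1, Lmf2, Angptl8 and the uncalled markers with reads were named after their values were seen. The list symbol Gyk was matched to Gk through RefSeq.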

Additional observations from a re-analysis of the deposited data

How the results depend on the processing

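Each of the 8 tested genes kept its direction under all alternatives, and 118 of 120 values also kept their call, the 2 exceptions being Pparg without control replicate 2 (-0.39) and without induced replicate 3 (-0.37). The number of the 10 genes called was 7 to 9, with 9 when no filter was applied, since Plin1 then passed. Its value without the filter and without induced replicate 1 was an alternative chosen after seeing the data. The log2 fold change of Plin4 was 0.69 under limma with a pseudocount of 0.1 FPKM and 0.25 with 1 FPKM, which is above its level. Over all genes, 7783 to 9765 were called, against 9225, and 8514 to 9348 when a library was left out. Scaling by library totals shifted the median over all genes from -0.01 to -0.04 on the log2 scale.

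Replicate numbers did not pair the libraries. Between libraries that share a number, the correlations of deviations from the group mean were 0.015, -0.004 and 0.025. With the replicate block 9063 genes and the same number of the 10 genes, 8, were called, with Pparg at -0.47 and Lpl at 1.26. At this depth Plin1 and Cd36 did not pass the filter, and the within-library ratios cannot pass 0.05 with 3 libraries per group.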
